A study of Mus musculus with 6 samples.

Results

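The genes described here encode the proteasome, its immune-type catalytic subunits, its activators and its assembly factors. They were chosen by name, as the genes whose symbols run from Psma to Psmg with a number, and by a summed raw count of at least 60 over the 6 libraries. This gave 48 of the 18491 genes in the deposited table. No name match fell below the minimum, the lowest summed count being 1160 (Psma8) and the highest 411728 (Psmb6), and all 48 passed the filter on low counts that left 15474 genes for testing. By name, 18 are core genes (Psma and Psmb), 20 are lid and base genes (Psmc and Psmd), 5 are activator genes (Psme), and 5 are assembly and inhibitor genes (Psmg and Psmf1).

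RNA was sequenced from mouse bone marrow cells sorted as haematopoietic stem and progenitor cells, the source of all blood lineages, in 3 knockout (KO) and 3 wild-type (WT) libraries. In the KO mice, per the series' design text, Robo1, a receptor for Slit guidance proteins, was deleted with Mx1-cre, a recombinase that interferon switches on in blood cells and in other tissues, after poly(I:C) in 3 doses. Poly(I:C) is a synthetic double-stranded RNA that raises interferon, and the protocol gives the same sort, 8 months after it, for KO and WT libraries. The labels conflict: the descriptions and genotype field read KO and WT, while titles and treatment field name shRNAs, against ROBO1 in the KO titles, against ROBO1, ROBO2 or ROBO3 in the KO treatment field, and a scramble control in WT. Groups follow the descriptions. The labels do not say whether WT mice carried Mx1-cre or an uncut Robo1 allele, and they give no strain, sex or age. Nor do they tie each library to an animal of its own, so a p-value reflects spread between libraries that may be only technical. The Robo1 transcript was not analysed here and could not serve as a check of the labels.

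The proteasome is the large protease that degrades proteins tagged with ubiquitin. Its barrel-shaped core particle has outer rings of alpha subunits (Psma) and inner rings of beta subunits (Psmb), of which Psmb5, Psmb6 and Psmb7 carry the chymotrypsin-like, caspase-like and trypsin-like active sites. The regulatory particle on the barrel's end has a base with a ring of ATPases (Psmc), which unfold the substrate, and a lid (Psmd), which removes ubiquitin. In immune cells and after interferon the active subunits are replaced by Psmb8 in place of Psmb5, Psmb9 in place of Psmb6 and Psmb10 in place of Psmb7, giving the immunoproteasome, which shapes the peptides shown by MHC class I. Psme1 and Psme2 form an interferon-inducible cap that opens the barrel without ubiquitin. Proteasome genes are known targets of Nfe2l1, which binds antioxidant response elements, and the immune-type genes are known targets of interferon-responsive factors, which bind ISRE and GAS sites.

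The promoters of 4 catalytic and activator genes that later results turn on, and that of Psme2 as the partner of Psme1, are shown with motif letters in capitals, from RefSeq (GRCm38.p6), 5′ to 3′ on the gene's own strand. The motifs searched on both strands were the antioxidant response element (TGACNNNGC), the CCAAT box (CCAAT), the interferon-stimulated response element or ISRE (GAAA-NN-GAAA) and the GAS site (TTCNNNGAA), with positions counted from the RefSeq start site. The windows of Psmb5, Psmb6 and Psme2 end just before that start, that of Psme1 lies in the first exon, and that of Psmb8 lies inside a longer GENCODE transcript that starts upstream.
Psmb5 (chr14:54617996-54618085, minus strand), antioxidant response element from position -47: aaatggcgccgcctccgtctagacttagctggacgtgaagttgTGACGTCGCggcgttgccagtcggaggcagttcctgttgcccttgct
Psmb6 (chr11:70525267-70525356, plus strand), antioxidant response element from position -9: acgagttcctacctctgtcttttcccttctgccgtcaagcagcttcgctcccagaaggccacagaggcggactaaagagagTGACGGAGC
Psmb8 (chr17:34198090-34198114, plus strand), GAS site from position -97: ctccgctgTTCCCAGAAgatgcccc
Psme1 (chr14:55578498-55578517, plus strand), ISRE on the opposite strand from position 10: tgtgcTTTCGCTTTCccttc
Psme2 (chr14:55591102-55591191, minus strand), none of the 4 motifs in these letters: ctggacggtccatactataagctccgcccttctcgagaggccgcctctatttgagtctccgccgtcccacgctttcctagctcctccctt

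Promoter windows of 250 bases before to 50 bases after the start were available for 40 of the 48 genes, in 43 entries. The antioxidant response element stood in 6 of these entries (13.95%), against 12.4% of all 32851 promoters in the table, and the CCAAT box in 13 (30.2%), against 37.4%. The ISRE stood in 5 (11.6%), against 3.44% of all promoters, and the GAS site in 3 (6.98%), against 8.30%. Besides Psme1, the entries with an ISRE were those of Psmb3, Psmd4, Psmd9 and Psmg4. Among core genes 7 of 15 entries held a CCAAT box (46.7%), those of Psma1, Psma2, Psma3, Psma6, Psma7, Psmb3 and Psmb9. No match of one motif overlapped a match of another. Psmb9 and Psmb8 flank Tap1, a subunit of the MHC class I peptide transporter, on chromosome 17, where the RefSeq genes run Psmb9 (34182030 to 34187330), Tap1 (34187556 to 34197225), Psmb8 (34198195 to 34201454) and Tap2 (34204479 to 34216321). Psme1 and Psme2 lie on chromosome 14 on opposite strands, at 55578494 to 55581527 and 55587440 to 55591101. These matches are descriptions of letters, and binding was not measured.

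Total counts ran from 42235077 to 57058267 in KO and from 44578916 to 58106099 in WT. Counts were spread over fewer genes in KO: the top 100 genes held 59.7 to 60.8% of counts in KO and 42.3 to 43.3% in WT, and 16232 to 16609 genes had a count in KO against 17418 to 17671 in WT. Scaling therefore decides the sign of most differences. With TMM scaling, which assumes that most genes do not change, all tested genes had a median log2 fold change of -0.09, and with total counts of -1.22, a shift of -1.13. The stem cell markers Kit (16.6 to 17.2 CPM in KO, 12.3 to 15.7 CPM in WT) and Cd34 (101 to 102 CPM in KO, 103 to 112 CPM in WT) were present, and the 10 stem and progenitor markers together took 0.0147 to 0.0157% of counts in KO and 0.0289 to 0.0315% in WT. The 9 eosinophil, basophil and mast cell markers took 3.28 to 3.54% in KO and 1.17 to 1.31% in WT, with 7 of the 9 called higher in KO with TMM scaling. The T and NK cell markers (at most 0.000353% in KO and 0.00115% in WT, Cd4 at 0 in every KO library) and dendritic cell markers (at most 0.00102% and 0.00323%, Itgax at 0 in every KO library) were near 0. Macrophage (0.00356 to 0.00418% in KO, 0.00496 to 0.00585% in WT), late neutrophil (0.0148 to 0.0157%, 0.0294 to 0.0319%), B lineage and plasma cell (0.0713 to 0.0845%, 0.122 to 0.137%) and erythroid markers (0.333 to 0.387%, 0.226 to 0.284%) also differed in share without overlap. On this scale 76.1% of all tested genes had every KO library below every WT library. Summed as TMM-scaled CPM, stem and progenitor markers turned, at 223 to 229 in KO and 201 to 208 in WT. So did late neutrophil (224 to 232, 194 to 222), macrophage (52.4 to 61.0, 34.6 to 38.6) and B lineage markers (1070 to 1243, 820 to 906). The other sets kept their direction. With TMM scaling the calls, higher and lower of those tested, were 2 and 2 of 10 stem and progenitor, 1 and 4 of 9 B lineage, 0 and 0 of 4 T and NK, 1 and 0 of 4 macrophage, 0 and 2 of 7 dendritic, 3 and 0 of 6 late neutrophil and 5 and 1 of 8 erythroid markers. Over all tested genes 17.2% were called higher and 14.4% lower with TMM. Most of the B lineage sum was Jchain, the 1 called higher, at 926 to 1117 CPM in KO and 598 to 668 CPM in WT. The part of these cells in the proteasome results was not tested, and in such bulk samples fewer cells of a type and less RNA per cell cannot be told apart.

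The proteasome genes as a whole took a smaller share of the counts in KO: 0.881, 0.915 and 0.940% in the KO libraries, against 1.39, 1.41 and 1.37% in the WT libraries. All 3 KO libraries lay below all 3 WT libraries. Relative to the median gene, however, 42 of the 48 genes lay higher under both scalings. In edgeR's quasi-likelihood test with TMM scaling, where CPM scales counts to the TMM-scaled library size and a gene is called where its p, adjusted by Benjamini-Hochberg, is under 0.05, 26 of the 48 were higher in KO, 3 were lower and 19 did not pass. Over all 15474 tested genes 17.2% were called higher and 14.4% lower. These shares are not matched for expression level, and over all genes the fold change rose with log2 CPM (Pearson correlation 0.27). With total counts as the only scaling 1 was higher, 46 were lower and 1 did not pass, where 4.23% of all genes were called higher and 70.7% lower. Over the 48 genes the median was 0.26 on the log2 scale with TMM scaling and -0.87 with total counts, 0.35 above the median gene in both. Of the 26 higher with TMM, 24 were lower with total counts, so the log2 fold changes of most genes named below are given with both scalings. DESeq2 with its own size factors called 28 of the 48 higher and 3 lower, where 15.6% of all genes it adjusted were called higher and 11.9% lower. With TMM-scaled CPM every KO library lay above every WT library for 32 genes and below for 4, against 22.2% and 24.4% of all tested genes. With CPM of total counts it lay above for 1 and below for 46, against 4.85% and 76.1%.

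**Figure D1:**
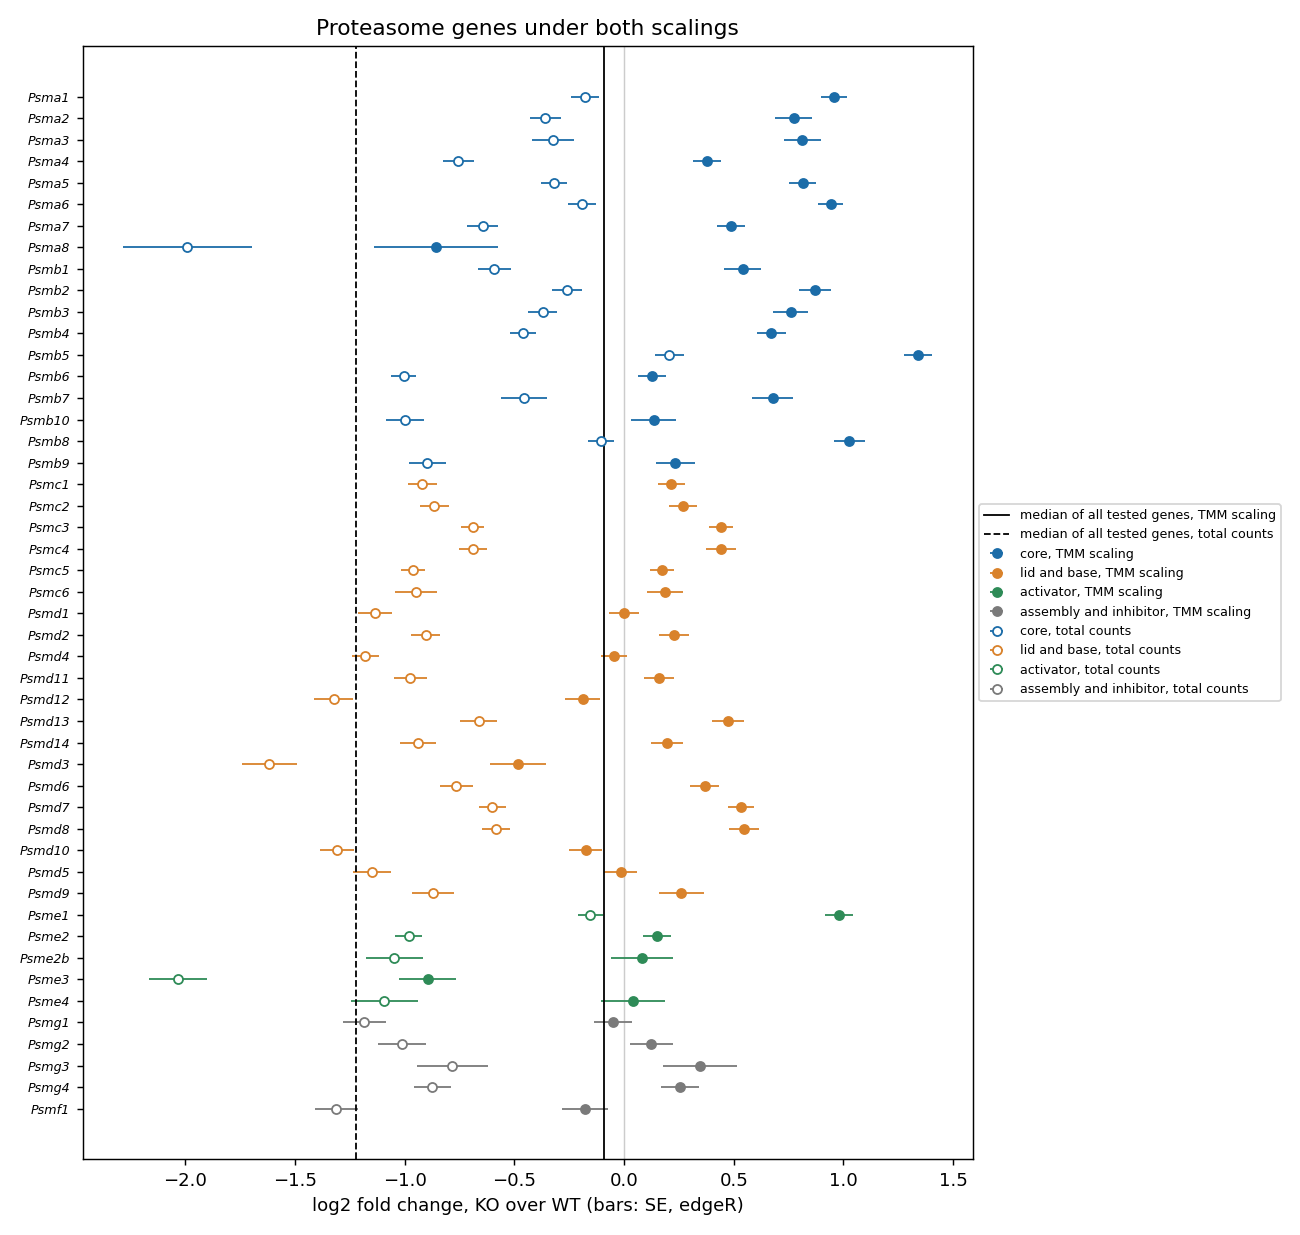
Log2 fold change of KO over WT for each of the 48 proteasome genes, with TMM scaling (filled) and with total counts (open), bars showing the SE of edgeR's fit and vertical lines the median of all tested genes under each scaling. Core genes (median 0.72 with TMM, -0.41 with total counts) lie farther to the right of the median gene than lid and base genes (0.21, -0.93), and only Psmb5 lies right of 0 with total counts.

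The core genes stood farthest above the median gene. With TMM scaling 14 of the 18 were called higher in KO, 1 lower and 3 did not pass, against the background shares of 17.2% and 14.4%. With total counts 1 was higher and 16 were lower. Their log2 fold changes had a median of 0.72 with TMM (0.81 above the median gene) and -0.41 with total counts. Of the 20 lid and base genes 10 were higher, 1 lower and 9 not called with TMM, and all 20 were lower with total counts. The lid and base median was 0.21 with TMM (0.30 above the median gene) and -0.93 with total counts. In share of all counts the core genes took 0.594 ± 0.0197% in KO and 0.822 ± 0.0148% in WT, and the lid and base genes 0.268 ± 0.0100% in KO and 0.487 ± 0.0117% in WT (mean ± SD, n = 3 each).

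A ratio within a library does not depend on scaling. The geometric mean count of the 7 alpha subunit genes Psma1 to Psma7 was 2.02, 2.06 and 2.08 times that of the 6 ATPase genes Psmc1 to Psmc6 in the KO libraries, against 1.48, 1.51 and 1.52 times in the WT libraries. Set against the Psmd genes, the same alpha subunit genes stood 4.35, 4.39 and 4.41 times as high in the KO libraries, against 2.87, 2.95 and 2.82 times in the WT libraries. The groups overlapped in neither ratio. ATPase genes over Psmd genes gave 2.15, 2.14 and 2.12 in KO and 1.94, 1.95 and 1.86 in WT, also without overlap. The log2 difference was 0.16, smaller than the 0.45 and 0.61 of the alpha subunit genes. Alpha over beta subunit genes gave 1.52, 1.54 and 1.57 in KO and 1.41, 1.58 and 1.56 in WT, and these overlapped. From fold changes fitted with a correction of each library for exon length and GC content, the 3 differences were 0.44 (alpha over ATPase), 0.51 (alpha over Psmd) and 0.06 (ATPase over Psmd). The ratios are descriptions with no test, since the genes were grouped with earlier results known.

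The outer alpha rings form the gate of the barrel, through which substrates enter. With TMM scaling 7 of the 8 alpha genes were higher in KO and 1, Psma8, was lower; with total counts all 8 were lower. The log2 fold changes of Psma1 to Psma7 ran from 0.38 (Psma4) to 0.96 (Psma1) with TMM and from -0.76 to -0.18 with total counts. Psma1 had 719.7, 693 and 729 CPM in the KO libraries, against 349, 381 and 373 CPM in the WT libraries. Every KO library was above every WT library, and the log2 fold change was 0.96 ± 0.06 (SE; adjusted p = 2.25e-06 in edgeR) with TMM and -0.18 with total counts. Psma6 had 581, 579.5 and 596 CPM in the KO libraries, against 291, 308 and 314 CPM in the WT libraries. Psma5 had 414, 415 and 399 CPM in the KO libraries, against 242, 236 and 219.7 CPM in the WT libraries. Neither gene's groups overlapped, and their log2 fold changes were 0.94 ± 0.06 and 0.82 ± 0.06 (SE; adjusted p = 2.04e-06 and 8.25e-06 in edgeR) with TMM and -0.19 and -0.32 with total counts. With the length and GC correction they were smaller, at 0.54 and 0.43, and still called, while Psma1 stood at 1.003. Psma7, the most abundant alpha gene per length, changed less, at 0.49 ± 0.06 with TMM and -0.64 with total counts.

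Psma8, an alpha subunit known from testis, was the exception, at 1.49, 2.01 and 3.17 CPM in the KO libraries, against 3.30, 4.20 and 4.47 CPM in the WT libraries. All 3 KO libraries lay below the WT libraries, and the log2 fold change was -0.86 ± 0.28 (SE; adjusted p = 0.045 in edgeR) with TMM and -1.99 with total counts. The call is not firm: with DESeq2 size factors the adjusted p was 0.0513, and it was 0.115 without KO replicate 1, 0.122 without KO replicate 2, 0.0583 without WT replicate 1, 0.136 without WT replicate 2 and 0.154 without WT replicate 3.

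The inner beta rings hold 4 subunits without an active site, Psmb1 to Psmb4, and all 4 were higher in KO with TMM (log2 0.54 to 0.87) and lower with total counts (-0.59 to -0.26). Psmb2 had 647, 649 and 725 CPM in the KO libraries, against 397, 349 and 359.9 CPM in the WT libraries. Psmb3 had 901, 891 and 886 CPM in the KO libraries, against 595, 491 and 494 CPM in the WT libraries. Psmb4 had 157, 152 and 154 CPM in the KO libraries, against 103, 91.3 and 96.5 CPM in the WT libraries. In each of the 3 genes every KO library was above every WT library. The log2 fold changes with TMM were 0.87 ± 0.07, 0.76 ± 0.08 and 0.67 ± 0.07 in that order (SE; adjusted p = 1.83e-05, 8.12e-05 and 5.89e-05 in edgeR), and with total counts -0.26, -0.37 and -0.46. With the length and GC correction Psmb2 was the lowest of the 3 at 0.41, against 0.70 for Psmb3 and 0.54 for Psmb4.

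The catalytic genes differed widely among themselves. Psmb5, the chymotrypsin-like subunit (chromosome 14, 54614119 to 54618022, minus strand, mm10), had 342, 351 and 317 CPM in the KO libraries, against 129, 133 and 136 CPM in the WT libraries. It had the largest log2 fold change of the 48 with TMM, 1.34 ± 0.06 (SE; adjusted p = 4.27e-07 in edgeR), and it was the 1 proteasome gene called higher with total counts too, at 0.21 (edgeR adjusted p = 0.019). With the length and GC correction its log2 fold change was 0.52 (edgeR adjusted p = 0.00123), below those of Psma1, Psmb8 (0.98) and Psme1 (0.84), and no longer the largest. That correction used the length of all annotated exons, 899 bases for Psmb5 and 3381 for Psmb8. Their longest coding transcripts have 899 and 1628 bases. As CPM of total counts Psmb5 averaged 227 in KO and 197 in WT. Of its transcript 88.4% also matched other annotated genes at 95% identity or more, the longest match being the processed pseudogene Gm3375, so the split of its reads between them is uncertain. Psmb6, the caspase-like subunit with the promoter element shown 9 bases before its start, had 1281, 1305 and 1362 CPM in the KO libraries, against 1290.1, 1182 and 1141 CPM in the WT libraries. Those groups overlapped, the log2 fold change was 0.13 ± 0.06 (SE; adjusted p = 0.16 in edgeR) with TMM, and with total counts Psmb6 was lower at -1.004. Psmb7, the trypsin-like subunit, had 20.05, 19.4 and 22.2 CPM in the KO libraries, against 12.3, 13.1 and 13.0 CPM in the WT libraries. Its log2 fold change was 0.68 ± 0.09 (SE; adjusted p = 0.000517 in edgeR) with TMM and -0.46 with total counts. Psmb7 shares 405 exonic bases with Nek6 on the opposite strand, and the strand setting of the counting is not stated.

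Of the interferon-inducible catalytic genes 1 of 3 was called higher with TMM. Psmb8 (chromosome 17, 34197721 to 34201454, plus strand, mm10) had 1219.6, 1211 and 1239 CPM in the KO libraries, against 661, 576 and 564 CPM in the WT libraries. Every KO library was above every WT library, and the log2 fold change was 1.03 ± 0.07 (SE; adjusted p = 4.31e-06 in edgeR) with TMM. With total counts it was the 1 gene of the 48 that did not pass, at -0.11 (edgeR adjusted p = 0.134). Psmb9 had 48.9, 47.3 and 46.8 CPM in the KO libraries, against 45.1, 38.8 and 37.6 CPM in the WT libraries. The groups did not overlap, but the log2 fold change of 0.23 ± 0.09 did not pass (SE; adjusted p = 0.0737 in edgeR) with TMM, and with total counts it was lower at -0.90. Psmb10 had 172, 152 and 146 CPM in the KO libraries, against 164, 131 and 133 CPM in the WT libraries, which overlapped. Its log2 fold change of 0.14 ± 0.10 did not pass with TMM (SE; adjusted p = 0.362 in edgeR), and with total counts it was lower at -0.997. WT replicate 1 was the highest WT library for all 3 genes and for Psmb6. Without it Psmb6 (log2 0.19, edgeR adjusted p = 0.0255), Psmb9 (0.33, 0.0127) and Psmb10 (0.26, 0.0465) were called higher with TMM.

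**Figure D2:**
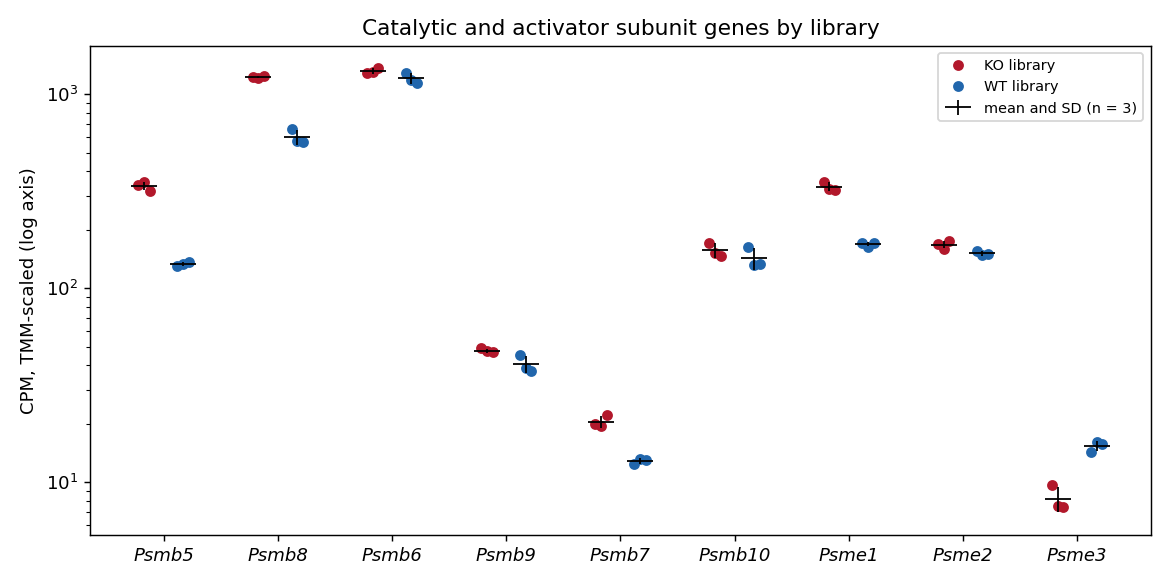
TMM-scaled CPM on a log axis of the catalytic genes, each interferon-inducible gene beside the gene it replaces, and of Psme1, Psme2 and Psme3, with KO libraries left of WT libraries and lines for the mean and SD (n = 3 each). On this scale KO and WT are well apart for Psmb5 (317 to 351 against 129 to 136 CPM), Psmb8 and Psme1, and overlap for Psmb6 and Psmb10, while with total counts Psmb5 alone was higher in KO.

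The exchange of catalytic subunits was read as the count ratio of each interferon-inducible gene to the gene it replaces, within each library. Psmb8 over Psmb5 was 3.56, 3.45 and 3.91 in the KO libraries, against 5.11, 4.34 and 4.14 in the WT libraries. The groups did not overlap, and the mean log2 difference was -0.31 (two-sided exact permutation p = 0.1, the smallest that 3 against 3 libraries allow). In deposited FPKM, fragments scaled by a length and library size, this ratio overlapped between groups (log2 difference -0.24, exact permutation p = 0.2). A fixed length per gene would keep the difference seen in counts. For Psmb5 the deposited values followed the counts at a fixed length, so the length behind them varied between libraries for Psmb8. The direction turned with the length and GC correction, where the fitted log2 fold change of Psmb8 was 0.47 above that of Psmb5. That correction used all annotated exons, 3381 bases for Psmb8, whose longest coding transcript has 1628, and 899 for Psmb5. The turn therefore rests on an annotated length, and the length of the expressed transcripts was not tested. Psmb10 over Psmb7 was 8.57, 7.82 and 6.60 in the KO libraries, against 13.3, 9.995 and 10.2 in the WT libraries, a log2 difference of -0.54 without overlap (exact permutation p = 0.1). Psmb9 over Psmb6 was 0.0382, 0.0363 and 0.0343 in the KO libraries, against 0.0350, 0.0329 and 0.0329 in the WT libraries, a log2 difference of 0.11 with overlap (exact permutation p = 0.2). No pair could pass 0.05 in this design. With the length and GC correction the differences were -0.87 for Psmb10 over Psmb7 and 0.23 for Psmb9 over Psmb6. The mean count ratio of 2 of the 3 immune-type genes to their partner was lower in KO, and with that correction 1 of the 3 was, that of Psmb10 to Psmb7.

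In deposited FPKM, whose length was not fixed for every gene, Psmb6 made up most of the constitutive sum. The 3 immune-type genes summed to 549 ± 22.3 FPKM in KO and 653 ± 47.5 FPKM in WT, and the 3 constitutive genes to 1152 ± 36.2 FPKM in KO and 2061 ± 53.8 FPKM in WT (mean ± SD, n = 3 each). The immune-type genes made up 32.0, 32.3 and 32.5% of the catalytic FPKM in the KO libraries, against 25.2, 23.3 and 23.6% in the WT libraries, with no overlap. Psmb6 alone stood at 931 ± 39.8 FPKM in KO and 1865 ± 61.5 FPKM in WT, and Psmb8 at 459 ± 26.9 FPKM in KO and 469.9 ± 22.6 FPKM in WT.

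**Figure D3:**
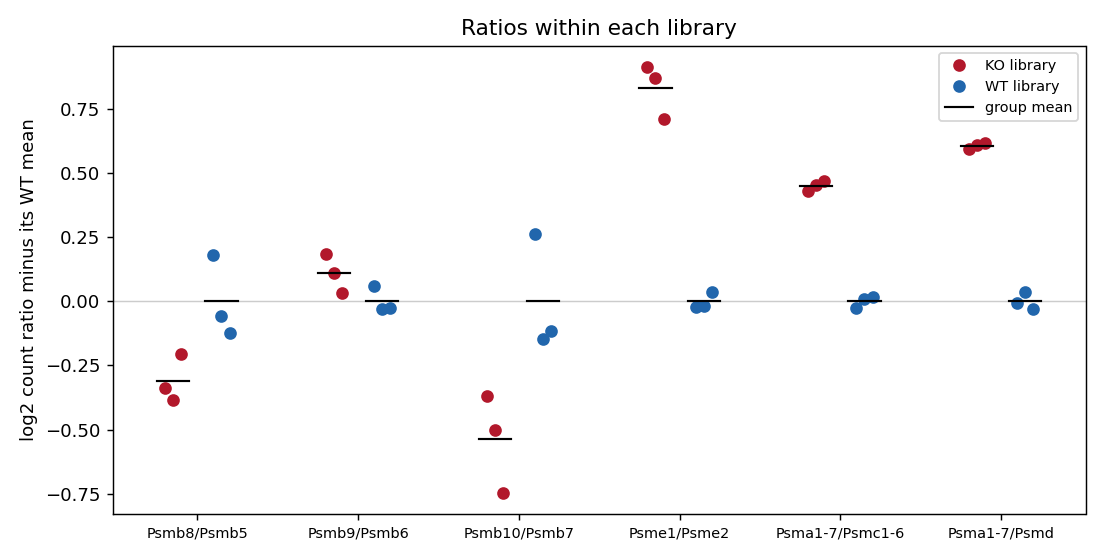
Log2 ratio of counts within each library, minus the WT mean of that ratio, for KO libraries (left) and WT libraries (right), with lines at the group means. Psme1 over Psme2 (0.83) and alpha genes over ATPase genes (0.45) and over Psmd genes (0.61) lie above 0 in every KO library, and Psmb10 over Psmb7 (-0.54) and Psmb8 over Psmb5 (-0.31, but 0.47 with the length and GC correction) below 0.

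The base ATPases thread the unfolded substrate into the barrel. Of the 6 Psmc genes 5 were higher in KO with TMM, with Psmc6 at 0.19 not passing, and all 6 were lower with total counts. Their median was 0.24 on the log2 scale with TMM, and the 5 ran from 0.17 to 0.44. The call of Psmc5 is not firm: it was higher at 0.17 (edgeR adjusted p = 0.0437) with TMM, lower at -0.17 (0.0423) with the length and GC correction, and not called with upper-quartile scaling (0.0572) or the replicate number as a block (0.0742). With that correction Psmc1 was not called (0.09, edgeR adjusted p = 0.335), and Psmc6 was called higher (0.26, 0.0128). Psmc3 had 777, 789.6 and 813 CPM in the KO libraries, against 600.1, 579.8 and 570.3 CPM in the WT libraries. Psmc4 had 424, 423 and 457 CPM in the KO libraries, against 346, 306 and 308 CPM in the WT libraries. Psmc2 had 108, 109 and 115 CPM in the KO libraries, against 94.3, 90.2 and 91.7 CPM in the WT libraries. In all 3 the groups did not overlap. Their log2 fold changes with TMM were 0.44 ± 0.05, 0.44 ± 0.07 and 0.27 ± 0.06 (SE; adjusted p = 0.000217, 0.0011 and 0.0106 in edgeR), and with total counts -0.69, -0.69 and -0.87.

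Among the Psmd genes the lid subunits gave most of the calls. Of 8 lid genes 4 were higher with TMM, Psmd6, Psmd7, Psmd8 and Psmd13, and 1, Psmd3, was lower, while all 8 were lower with total counts. Psmd7, the inactive partner of the lid deubiquitinase, had 341, 354 and 374 CPM in the KO libraries, against 250.4, 242 and 247 CPM in the WT libraries. Psmd8 had 141, 137 and 142 CPM in the KO libraries, against 102, 89.3 and 96.0 CPM in the WT libraries. Psmd13 had 156, 154 and 158 CPM in the KO libraries, against 102, 119 and 117 CPM in the WT libraries. None of the 3 overlapped, and the log2 fold changes were 0.53 ± 0.06, 0.55 ± 0.07 and 0.47 ± 0.07 (SE; adjusted p = 0.00013, 0.000281 and 0.00101 in edgeR) with TMM and -0.60, -0.58 and -0.66 with total counts. Psmd14, the deubiquitinase itself, stood at 0.20 ± 0.07 with TMM and did not pass (SE; adjusted p = 0.0702 in edgeR). It was called higher with the length and GC correction (edgeR adjusted p = 0.0154), with DESeq2 size factors (0.0438) and in DESeq2 (adjusted p = 0.0211). Upper-quartile scaling (edgeR adjusted p = 0.0873) and the replicate number as a block (0.0611) gave no call. Psmd13 shares 342 exonic bases with Sirt3 on the opposite strand.

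Psmd3, a lid subunit, went the other way, at 9.53, 8.85 and 9.99 CPM in the KO libraries, against 13.6, 11.4 and 14.7 CPM in the WT libraries. The KO libraries were all lower, and the log2 fold change was -0.48 ± 0.13 (SE; adjusted p = 0.0174 in edgeR) with TMM and -1.62 with total counts. The adjusted p was 0.0626 without KO replicate 2, 0.0573 without WT replicate 1 and 0.0954 without WT replicate 3. In the base the large scaffold subunit Psmd2 was higher at 0.23 with TMM, and the other large scaffold Psmd1 (-0.00) and the ubiquitin receptor Psmd4 (-0.05) did not pass. The 3 chaperones of base assembly, Psmd5 (-0.01), Psmd9 (0.26) and Psmd10 (-0.17), gave 0 calls in edgeR with TMM, 2 at an unadjusted p under 0.05 and 0 in DESeq2. With the length and GC correction Psmd9 was higher (0.38, edgeR adjusted p = 0.0184) and Psmd10 lower (-0.41, 0.00222). All 6 of these genes were lower with total counts.

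The 5 activator genes moved in different directions. With TMM 1 was higher, 1 lower and 3 did not pass, and with total counts all 5 were lower. Psme1 (chromosome 14, 55578123 to 55581529, plus strand, mm10) had 353, 326 and 319 CPM in the KO libraries, against 171, 164 and 171 CPM in the WT libraries. Its groups did not overlap, and the log2 fold change was 0.98 ± 0.06 (SE; adjusted p = 3.17e-06 in edgeR) with TMM and -0.15 with total counts. Its partner Psme2 had 168, 159.9 and 175 CPM in the KO libraries, against 155, 148 and 149.6 CPM in the WT libraries. Those groups did not overlap, but the log2 fold change of 0.15 ± 0.06 did not pass (SE; adjusted p = 0.103 in edgeR) with TMM, and with total counts it was -0.98 and called lower. Within libraries the count of Psme1 was 2.10, 2.04 and 1.82 times that of Psme2 in KO, against 1.10, 1.10 and 1.15 times in WT, a log2 difference of 0.83 (two-sided exact permutation p = 0.1, the smallest possible). This ratio was chosen after its values were seen. It was 0.84 with the counts of Psme2b added to Psme2 and 0.79 to 0.89 with any 1 library left out.

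Psme2b, a copy of Psme2 on chromosome 11 that matches it at 99.4% over 794 bases, had 28.1, 28.1 and 26.7 CPM in the KO libraries, against 32.7, 22.8 and 22.9 CPM in the WT libraries. The groups overlapped, and at 0.08 ± 0.14 (SE; adjusted p = 0.707 in edgeR) with TMM it did not pass. With WT replicate 1 left out it was called higher (0.29, edgeR adjusted p = 0.0364), with a correction for exon length and GC content it was called lower (-0.70, edgeR adjusted p = 0.00133), and with total counts it was -1.05. Reads of the copies cannot be assigned with certainty. Psme3, which forms a nuclear cap of its own, had 9.69, 7.55 and 7.49 CPM in the KO libraries, against 14.3, 16.1 and 15.7 CPM in the WT libraries. Every KO library was lower, at -0.90 ± 0.13 on the log2 scale (SE; adjusted p = 0.000679 in edgeR) with TMM and -2.03 with total counts, the lowest of the 48 under both scalings. Psme4, a large single-chain activator, had 4.97, 4.66 and 5.47 CPM in the KO libraries, against 4.64, 4.88 and 5.13 CPM in the WT libraries, which overlapped (log2 0.04 ± 0.14, edgeR adjusted p = 0.861, with TMM, and -1.09 and called lower with total counts).

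Of the assembly chaperones Psmg1 to Psmg4, which pair the alpha subunits, and the inhibitor Psmf1, 1 of 5 was called with TMM and all 5 were lower with total counts. Psmg4 had 50.8, 53.4 and 53.5 CPM in the KO libraries, against 48.8, 40.9 and 42.4 CPM in the WT libraries. Its log2 fold change of 0.26 ± 0.09 sat at the threshold (SE; adjusted p = 0.04998 in edgeR), and with the length and GC correction it was called lower at -0.94. Psmg1 (-0.05), Psmg2 (0.12), Psmg3 (0.35) and Psmf1 (-0.18) did not pass with TMM, and with that correction Psmg1 was called lower (-0.42). This group took 0.0132 ± 0.000344% of counts in KO and 0.0279 ± 0.000358% in WT (mean ± SD, n = 3 each).

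Per length the proteasome genes spanned a wide range of levels. In deposited FPKM the highest was Psmb6, followed in KO by Psmb3 (654 ± 4.68 FPKM in KO libraries and 843 ± 59.5 FPKM in WT libraries) and Psma7 (587 ± 49.4 FPKM in KO libraries and 917 ± 43.5 FPKM in WT libraries), and in WT by Psma7 and Psmb3, whose WT values overlapped. In KO Psmb8 came next and then Psmb2, at 442 FPKM in KO libraries and 529 FPKM in WT libraries on average, and the KO values of those genes overlapped. The lowest were Psme4 (0.435 ± 0.0367 FPKM in KO libraries and 0.978 ± 0.127 FPKM in WT libraries), Psma8 (1.09 ± 0.341 FPKM in KO libraries and 3.94 ± 1.01 FPKM in WT libraries), Psme3 (1.74 ± 0.247 FPKM in KO libraries and 7.16 ± 0.682 FPKM in WT libraries) and Psmd3 (2.44 ± 0.204 FPKM in KO libraries and 7.43 ± 0.915 FPKM in WT libraries), all mean ± SD with n = 3 each. The median gene level was 195 FPKM in KO and 207 FPKM in WT for core genes, 49.1 FPKM in KO and 77.7 FPKM in WT for lid and base genes, and 18.6 FPKM in KO and 38.3 FPKM in WT for activator genes. Among the catalytic genes Psmb7 was low, at 9.93 ± 0.788 FPKM in KO libraries and 13.5 ± 1.07 FPKM in WT libraries, as was Psmb9, at 19.4 ± 0.257 FPKM in KO libraries and 36.7 ± 2.22 FPKM in WT libraries.

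**Figure D4:**
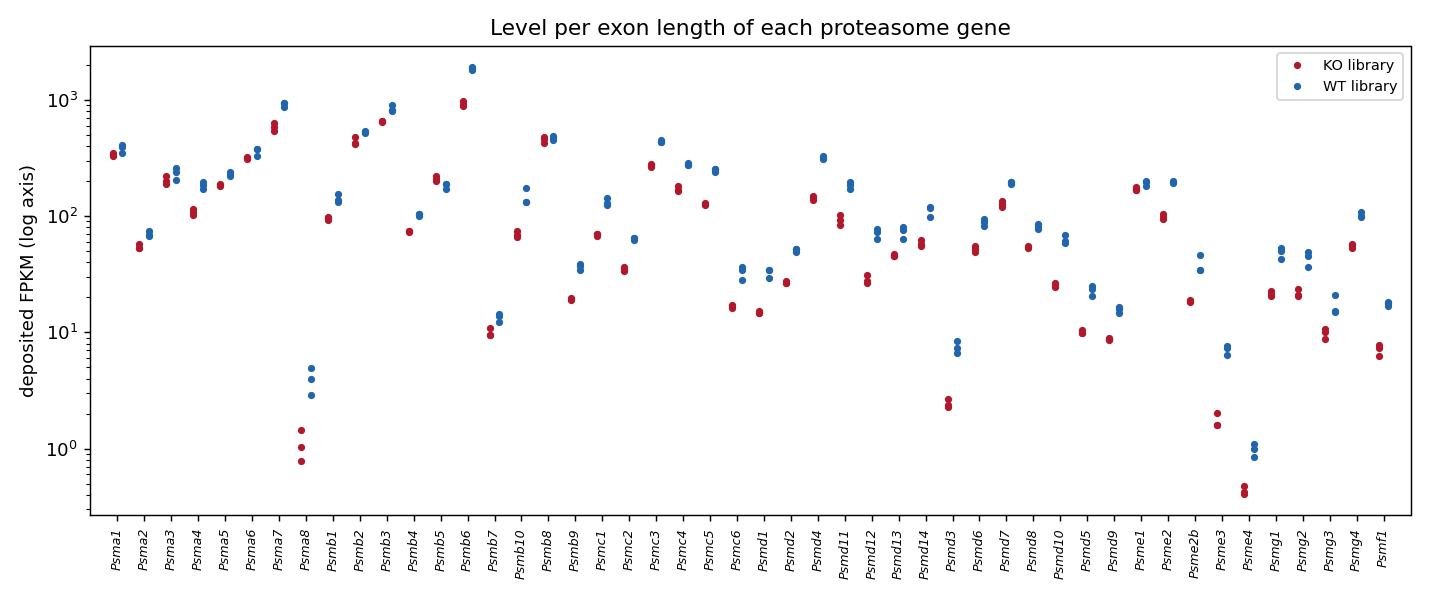
Deposited FPKM of every proteasome gene on a log axis, a point per library with KO left of WT. Psmb6 is highest in both groups and Psme4 lowest, and Psmb5 is the gene whose KO libraries (mean 211 FPKM) lie above its WT libraries (mean 183 FPKM), FPKM being scaled to total counts.

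Fold changes varied over the whole table with exon length, counted over all annotated exons of a gene. Of 10 bins of tested genes by length, the shortest (median 414 bases) had a median log2 fold change of 0.98 with TMM, and the longest (median 11404.5 bases) -0.22. Across 15455 genes the correlation with log length was -0.27 (Pearson) and -0.27 (Spearman), and across the 48 proteasome genes, which share libraries, -0.22 and -0.14. The correlation with log2 CPM was stronger in the proteasome genes, at 0.64 (Pearson) and 0.60 (Spearman), against 0.27 and 0.23 across the 15455 genes. Core genes had a higher median FPKM than lid and base genes, and the 3 genes called lower with TMM were among the lowest. The part of expression level in these differences was not tested. Median exon length was 2432 bases in core genes, 2938.5 bases in lid and base genes and 2209 bases in activator genes. With the correction for length and GC content 27 of the 48 were higher and 8 lower, where 14% of all genes were called higher and 16.8% lower. Of the 26 called higher with TMM, 23 were also higher after the correction, the others being Psmc1, Psmc5 and Psmg4. Psmc6, Psmd9, Psmd11 and Psmd14 were higher with it and not in the TMM fit without it, and Psmc5, Psmd10, Psme2b, Psmg1 and Psmg4 were lower with it and not in that fit. Of the 29 genes called with TMM it moved 7 by over 1.5 times or turned them: Psma5, Psma6, Psmb2, Psmb5, Psmc1, Psmc5 and Psmg4. The core median became 0.53 and the lid and base median 0.26, each with the median gene at -0.13.

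**Figure D5:**
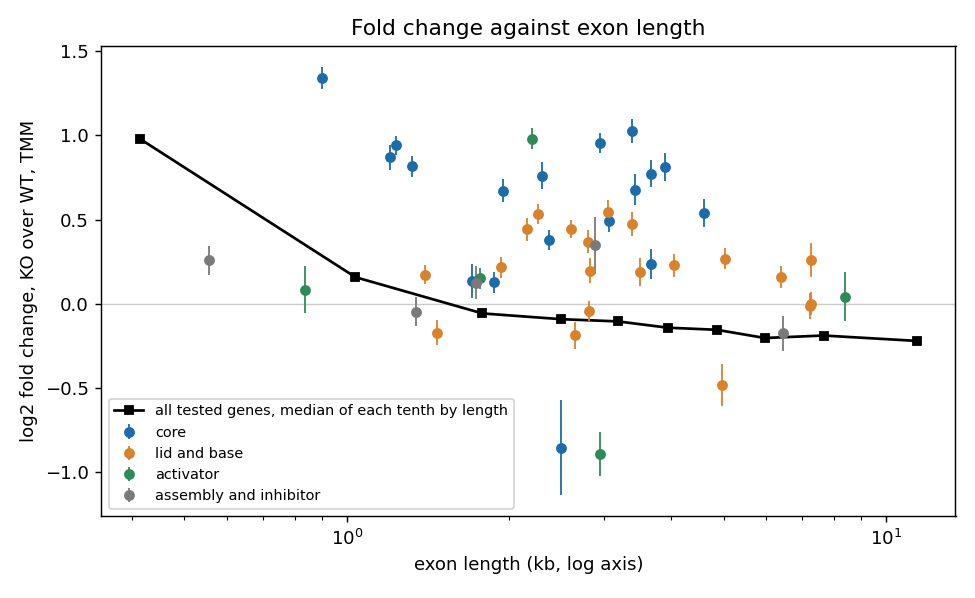
Log2 fold change of KO over WT with TMM scaling against exon length in kilobases (log axis) for the 48 proteasome genes with SE bars, and the median of all tested genes in each of 10 bins by length (black). Most core genes lie above the black line at their own length, while with total counts all but Psmb5 had a log2 fold change under 0.

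Near copies can share reads. Of the 48 genes 18 matched another annotated gene at 95% identity or more over at least 100 bases, partly as pseudogenes and partly as genes overlapping on the other strand. Among the 30 without a match 14 were higher and 3 lower with TMM (median 0.19), and among the 10 such core genes 7 were higher and 1 lower (median 0.61), with a median of -0.53 with total counts. Of Psma5 76.5% lay in near copies, mainly Gm8394.

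Other genes of the pathway were taken from 4 lists. Of 20 associated factors 4 were higher and 3 lower in KO with TMM (median -0.15, against -0.09 and calls of 17.2% and 14.4% over all genes). With total counts 0 were higher and 18 lower, against 4.23% and 70.7% of all genes. Sem1, a small lid subunit, had 311, 330.0 and 291 CPM in the KO libraries, against 153, 139 and 150.2 CPM in the WT libraries, clearly apart (log2 1.08 with TMM, -0.05 and not called with total counts). Txnl1, a proteasome-bound thioredoxin, was higher at 0.97 with TMM and not called at -0.16 with total counts. Vcp, the segregase that feeds substrates, was higher at 0.30 with TMM and lower at -0.84 with total counts, and the shuttle factor Ubqln1 was lower with both (-1.09 and -2.22). Pomp, which matures the core, was higher at 0.26 with TMM and lower at -0.87 with total counts.

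Of 14 genes for transcription control of the proteasome 3 were higher and 1 lower with TMM (median 0.00), against 17.2% and 14.4% of all genes. With total counts 0 were higher and 13 lower, against 4.23% and 70.7%. Nfe2l1, the main known activator, was at 3.13, 3.42 and 2.33 CPM in KO and 3.80, 3.47 and 2.51 CPM in WT, which overlapped and did not pass with TMM (edgeR adjusted p = 0.721). With total counts Nfe2l1 was lower at -1.26 (edgeR adjusted p = 0.000812). The related Nfe2l2 (0.38), its dimer partner Mafg (0.28) and the CCAAT-binding subunit Nfyc (0.61) were higher with TMM, and Nfyb (-0.40) was lower. With total counts Nfe2l2, Mafg, Nfyc and Nfyb were all lower (-0.76, -0.86, -0.52 and -1.54 in that order).

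Of 18 genes for ubiquitin and its activation 9 were higher and 1 lower with TMM (median 0.24), against 17.2% and 14.4% of all genes. With total counts 3 were higher and 12 lower, against 4.23% and 70.7%. Rps27a, which encodes ubiquitin fused to a ribosomal protein, had 1063, 1123 and 952 CPM in the KO libraries, against 412, 406 and 392 CPM in the WT libraries. Every KO library was above every WT library, and it was higher at 1.37 ± 0.07 (SE; adjusted p = 6.61e-07 in edgeR) with TMM and 0.24 with total counts. The polyubiquitin gene Ubb was higher with TMM (1.07) and not called with total counts (-0.06). The ubiquitin-conjugating gene Ube2s was lower at -1.22 with TMM and -2.36 with total counts.

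Of 16 interferon and antigen-processing genes 6 were higher and 6 lower with TMM (median -0.26), against 17.2% and 14.4% of all genes. The list thus had no common direction with TMM. With total counts 3 were higher and 12 lower, against 4.23% and 70.7%. B2m, the light chain of MHC class I, had 2471, 2544 and 2433 CPM in the KO libraries, against 557, 526 and 563 CPM in the WT libraries. Those groups lay far apart, with B2m higher at 2.18 with TMM. The heavy chains H2-D1 (2.44) and H2-K1 (1.76) were higher too, and all 3 were higher with both scalings (1.04, 1.31 and 0.62 with total counts). Igtp, an interferon-induced GTPase, was lower at -1.21 with TMM and -2.35 with total counts. Between Psmb9 and Psmb8 on chromosome 17, Tap1 was lower (-0.29, edgeR adjusted p = 0.0214, with TMM, and -1.42 with total counts), while Tap2 was higher (1.11, edgeR adjusted p = 0.000185, with TMM) and not called with total counts (-0.02). Tap1 shares 212 exonic bases with Psmb9 on the opposite strand. The transcription factor Irf1 was higher (0.51) and Irf8 (-0.64) and Irf9 (-0.70) were lower with TMM. With total counts all 3 were lower, Irf1 at -0.62. The genes named here beyond the 4 of lowest p in each list were chosen after their values were seen.

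In the authors' deposited table, of the 48 genes, 26 had a positive and 3 a negative log2 fold change at an adjusted p under 0.05. That table classed 2 of the 48 as up, Psmb5 at 1.35 and Psmb8 at 1.03, and 46 as stable. The shares of all genes called or classed in it were not counted here. In the DESeq2 fit made here 15.6% of all genes it adjusted were higher and 11.9% lower.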

How the data were processed

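RNA-seq of 3 KO and 3 WT libraries was used, as 1 deposited table. Per the submitters' processing notes, the tools were featureCounts 2.0.1, HISAT2 2.2.1, DESeq2 1.32.0 and fastp 0.22.0 with the build mm10, and no options or strand setting are given. The authors deposited raw read counts per gene and library. The deposited length-scaled values carry no unit and were taken as FPKM, since for 771 single-transcript genes 98.4 to 98.8% lay within 1% of a constant multiple of the FPKM computed from counts. Genes with more than 1 transcript were not checked this way. The authors also deposited log2 fold changes with p-values, a mean signal per gene (counts over size factors) and a test score, which were used only to describe that table.

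The members and all gene lists were chosen with earlier results of these data known. Counts were tested with edgeR 4.0.16 in R 4.3.3 (filterByExpr, TMM, glmQLFit and glmQLFTest, group as the only term, two-sided, Benjamini-Hochberg over 15474 genes, threshold 0.05). The SE is the size of the log2 fold change over the square root of F. TMM factors were 0.660 to 0.685 in KO and 1.44 to 1.52 in WT, and the total counts bound the precision. Alternatives were total counts, DESeq2 size factors, upper-quartile scaling, DESeq2 1.42.0, no filter, the replicate number as a block, a length and GC correction (an offset per library, mgcv 1.9.3) and leaving out each library. Exon length was that of all annotated exons of a gene merged, which can exceed the length of the transcript expressed. Ratios used an exact permutation over libraries. Near copies were found with BLAST 2.17.0 among GENCODE vM21 transcripts, of which 18470 gene IDs matched and 21 did not, and promoters came from RefSeq. Given per library are the catalytic and activator genes and, in each other subunit family, up to 3 called genes of lowest p in each direction. From each pathway list up to 4 genes of lowest p are named, mostly by log2 fold change. Of the list genes Sem1, Rps27a, B2m and Nfe2l1 are given per library. Replicates of a group differed by more than sampling noise. Some genes that this rule or the lists take in are not reported here.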

Additional observations from a re-analysis of the deposited data

How the results depend on the processing

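Total counts as the only scaling changed the picture most. They gave 655 higher and 10937 lower genes in all, and 1 higher and 46 lower proteasome genes, with 1 core, 0 lid and base and 0 activator genes higher. Their medians were -0.41 for core, -0.93 for lid and base and -1.05 for activator genes. Of the 38 proteasome genes with a positive log2 fold change with TMM, 37 were negative with total counts. Among those given per library these were Psma1 -0.18, Psma5 -0.32, Psma6 -0.19, Psmb2 -0.26, Psmb3 -0.37, Psmb4 -0.46, Psmb6 -1.004, Psmb7 -0.46, Psmb8 -0.11, Psmb9 -0.90, Psmb10 -0.997, Psmc2 -0.87, Psmc3 -0.69, Psmc4 -0.69, Psmd7 -0.60, Psmd8 -0.58, Psmd13 -0.66, Psme1 -0.15, Psme2 -0.98, Psme2b -1.05, Psme4 -1.09 and Psmg4 -0.87. The length and GC correction gave 8 lower proteasome genes, a core median of 0.53 and an activator median of -0.028, with Psme2b at -0.70 and Psmg4 at -0.94. Applied to the ratios after seeing the data, it gave 0.47 for Psmb8 over Psmb5, 0.23 for Psmb9 over Psmb6 and -0.87 for Psmb10 over Psmb7. The cause of these changes was not tested. The members without a near copy, a count chosen after seeing the data, held 14 higher genes among 30, against 26 among all 48. Their median log2 fold change with TMM was 0.19, against 0.26 for all 48.

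Same-numbered libraries showed no shared deviation, with correlations of their deviations of 0.0410, -0.0051 and 0.0477. With so few libraries this cannot tell whether the replicate numbers pair the samples. With the replicate number as a block 24 of the 26 higher proteasome genes were also called, Psmc5 and Psmg4 being lost, and 3 were lower. The block together with the length and GC correction gave 7 lower, a core median of 0.53, an activator median of -0.029, Psme2b -0.69 and Psmg4 -0.94.

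With 1 library left out at a time, 22 to 31 proteasome genes were higher and 1 to 4 lower, 1 to 2 activator genes were higher, and 1356 to 2142 genes in all were lower, with 1356 without WT replicate 2 and 1419 without WT replicate 3. The adjusted p of Psmg4 was over 0.05 without each KO library, WT replicate 2 or WT replicate 3, with no filter, with upper-quartile scaling and with the block (0.0585 to 0.174 over these). With the DESeq2 size factors or the DESeq2 test all 26 were also called higher.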
